A study of Homo sapiens with 12 samples.

Results

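The 10 genes described here encode the enzymes that hydroxylate and crosslink collagen: the lysyl oxidases LOX, LOXL1, LOXL2, LOXL3 and LOXL4, the lysyl hydroxylases PLOD1, PLOD2 and PLOD3, and the catalytic alpha subunits P4HA1 and P4HA2 of collagen prolyl 4-hydroxylase. They were chosen by name, not by measured value, though with earlier results of these data known. The deposited count table of 58735 genes held all 10. All 10 passed the filter on low counts that left 16702 genes for testing. The series measured poly(A)-selected RNA of Beas-2b, an epithelial line of human bronchus immortalised in culture, and its title places ANT1 in the setting of pulmonary fibrosis. ANT1, the product of SLC25A4, is the carrier that swaps ADP for ATP between cytosol and mitochondrial matrix. The 4 groups were ANT1 knockout cells in bleomycin, ANT1 knockout cells in control medium, wild type cells in bleomycin and wild type cells in control medium, with 3 biological replicates each and 12 libraries in all. The knockout was made with CRISPR, and bleomycin, a drug that breaks DNA, was given at 10 mg/ml for 2 days, per the labels, to bring on senescence. The sources used here do not give the number of knockout clones, and a clone's effect and the knockout's cannot be told apart. Every library is of the whole culture, so fewer cells that express a gene and less of its RNA per cell cannot be told apart.

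Collagen is modified inside the cell before it is crosslinked outside it. In the endoplasmic reticulum, prolyl 4-hydroxylase, a tetramer of alpha subunits with protein disulfide isomerase P4HB, hydroxylates proline residues and so stabilises the triple helix, while the PLOD enzymes hydroxylate lysine residues, PLOD2 in the telopeptides. After secretion the copper-dependent lysyl oxidases oxidise lysine and hydroxylysine residues to aldehydes that join collagen or elastin chains, and crosslinks built on PLOD2-made hydroxylysine are abundant in fibrotic tissue.

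SLC25A4 was measured at 4.09 to 6.97 CPM (counts per megacount of the library) in the 6 knockout libraries, against 16.1 to 27.5 CPM in the 6 wild type libraries. Library totals ran from 15.75 to 21.92 megacounts. The keratins KRT8, KRT18 and KRT7 were abundant in every library, while the epithelial markers EPCAM and CDH1 had between 9 and 50 counts. KRT18 was at 135 to 166 CPM in knockout bleomycin libraries, against 270 to 310 CPM in knockout control libraries. Of the 8 epithelial markers, 7 were tested, and 1 had 0 counts in all knockout control libraries. After bleomycin 3 were called higher and 3 lower in knockout cells (background 22.5% and 20.7% of all tested genes), and 3 higher and 2 lower in wild type cells (background 23.9% and 19.6%). The 8 fibroblast markers summed to between 1867 and 2431 CPM in 11 libraries, and to 4468 CPM in knockout control replicate 2, with DCN at 0 to 3 counts and LUM at 0 counts over the 12 libraries. Of the 4 fibroblast markers tested, 1 was called higher and 2 lower after bleomycin in each genotype. Single libraries decided some of these calls: that of COL1A1, lower in knockout cells, was lost when any single one of 9 libraries was left out, knockout control replicate 2 among them. The call of THY1, lower in wild type cells, was lost without wild type bleomycin replicate 2, and that of VIM, higher in wild type cells, when any single wild type bleomycin library or wild type control replicate 2 or 3 was left out. PDGFRB was at 9.52 to 13.5 CPM in knockout bleomycin libraries, against 40.1 to 50.01 CPM in knockout control libraries, and at 7.48 to 9.24 CPM in wild type bleomycin libraries, against 34.0 to 51.4 CPM in wild type control libraries. VIM was higher in every bleomycin library than in every control library of its genotype. THY1 was at 205 to 217 CPM in knockout bleomycin libraries, against 134 to 339 CPM in knockout control libraries, and at 175 to 194 CPM in wild type bleomycin libraries, against 308 to 348 CPM in wild type control libraries. The part of the epithelial and fibroblast markers in the results below was not tested. The summed leukocyte markers were between 4.51 and 6.59 CPM in bleomycin libraries and between 0 and 0.242 CPM in control libraries, almost all of it ITGAM, and their part in any result was not tested. Knockout control replicate 2 stood apart: 0.364% of its counts came from mitochondrially encoded genes, against 3.86% to 5.13% in the other 11 libraries, and on principal component 2, with 9.68% of the variance, it had a score of 74.6, where the others had -19.1 to 4.87. Results that rest on this library are given with and without it.

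**Figure D1:**
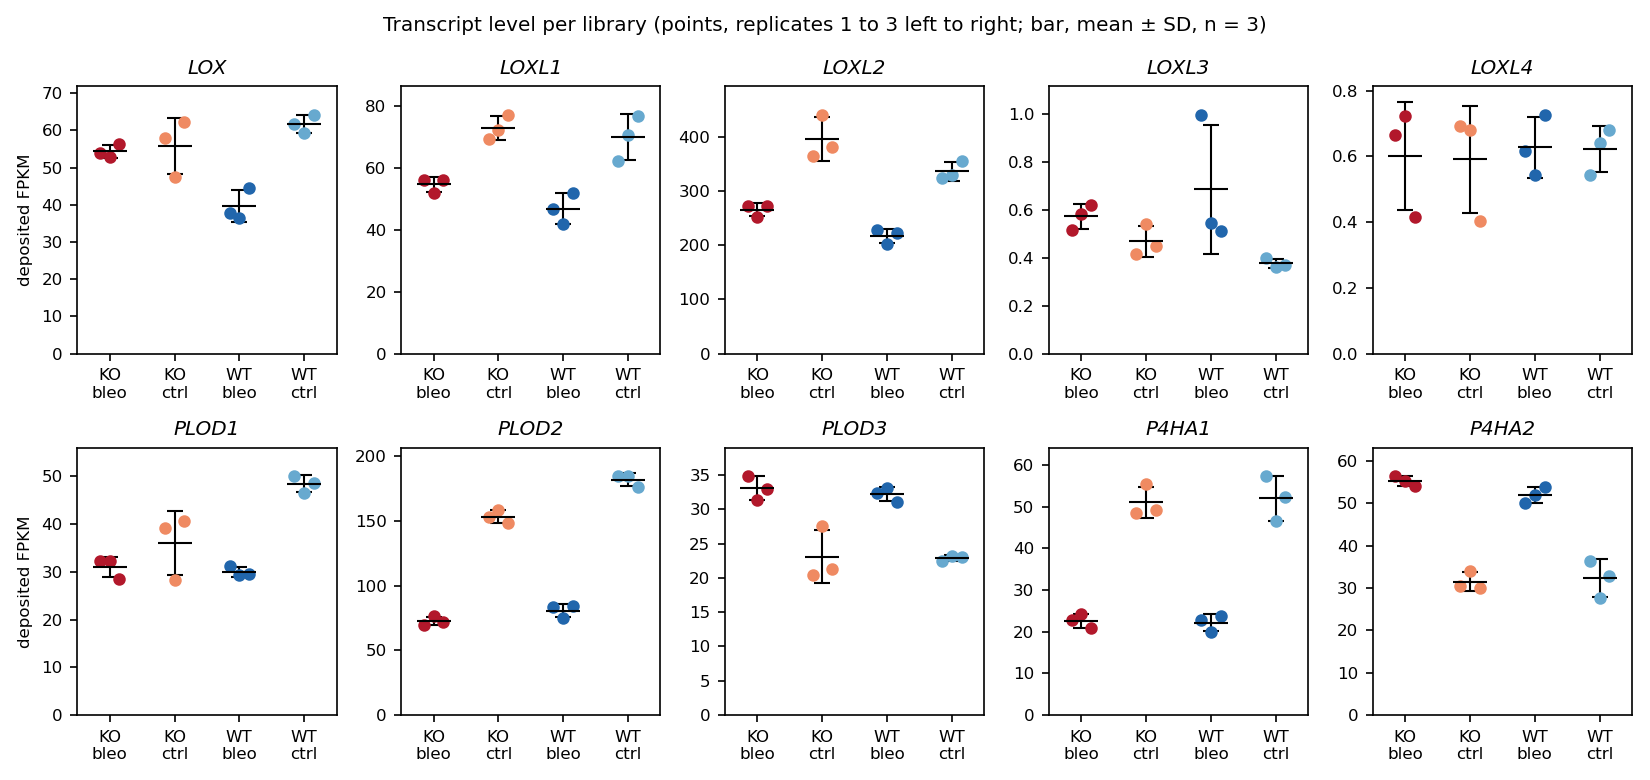
Deposited FPKM of each of the 10 genes (y axes, linear from 0, a scale of its own for each gene) in knockout (KO) and wild type (WT) cells in bleomycin (bleo) or control medium (ctrl); points are libraries, wide bars the mean and whiskers the SD of 3 libraries. PLOD2 and P4HA1 are lower, and PLOD3 and P4HA2 higher, in every bleomycin library than in every control library of the same genotype.

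Levels of different genes were compared in FPKM (fragments per kilobase of gene length per megafragment), which the authors deposited. The order of the mean levels in wild type control cells was LOXL2 at 337 ± 17.3 FPKM, PLOD2 at 182 ± 4.91, LOXL1 at 69.8 ± 7.45, LOX at 61.8 ± 2.43, P4HA1 at 52.0 ± 5.44, PLOD1 at 48.4 ± 1.79, P4HA2 at 32.3 ± 4.41, PLOD3 at 22.9 ± 0.405, LOXL4 at 0.621 ± 0.0700 and LOXL3 at 0.376 ± 0.0182 FPKM (SD, n = 3). The libraries of LOXL1 overlapped those of LOX in this group, and those of P4HA1 overlapped those of PLOD1. By group mean, LOXL2 exceeded between 99.3% and 99.7% of tested genes in the 4 groups, while LOXL3 and LOXL4 exceeded between 16.7% and 22.3% of them. LOXL3 had 30 to 85 counts and LOXL4 27 to 52 counts per library, so changes in these genes carry wide intervals.

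In knockout cells bleomycin raised PLOD3 and P4HA2 and lowered LOXL1, LOXL2, PLOD2 and P4HA1. Thus 2 of the 10 genes were called higher, against 22.5% of all 16702 tested genes, and 4 of 10 lower, against 20.7% of all tested genes (edgeR quasi-likelihood test, Benjamini-Hochberg adjusted p under 0.05 over all genes). The median log2 fold change was -0.12 over the 10 genes and 0.00 over all genes. In wild type cells 3 of 10 were called higher (LOXL3, PLOD3 and P4HA2), against 23.9% of all tested genes, and 6 of 10 lower (LOX, LOXL1, LOXL2, PLOD1, PLOD2 and P4HA1), against 19.6%. There the median log2 fold change was -0.60 over the 10 genes and 0.02 over all genes. The shares called higher lie near the background in both genotypes. PLOD2, P4HA1, LOXL1, LOXL2, PLOD3 and P4HA2 were called in both genotypes with the same direction.

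**Figure D2:**
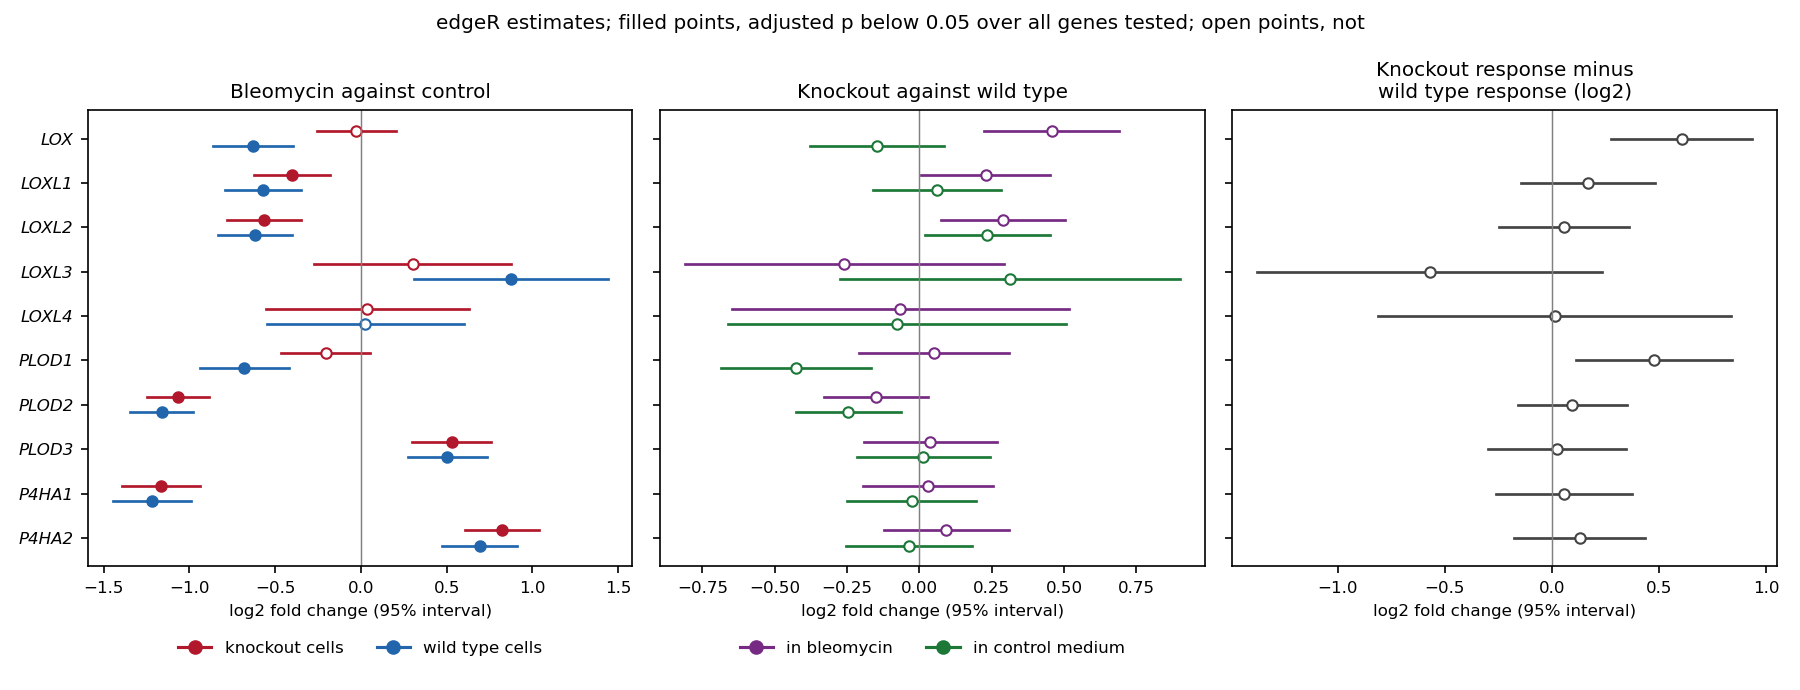
Log2 fold changes of the 10 genes from edgeR with 95% intervals (x axes): bleomycin over control in each genotype, knockout over wild type in each medium, and the knockout response minus the wild type response; filled points have an adjusted p under 0.05. In the first panel PLOD2 and P4HA1 lie between -1.22 and -1.07 in both genotypes, and in the others no point is filled.

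Among the lysyl oxidases, LOXL2, which also acts inside the nucleus, was the most abundant. It was measured at 273, 252 and 273 FPKM in knockout bleomycin cells, against 366, 442 and 382 FPKM in knockout control cells. In wild type cells it was at 228, 203 and 223 FPKM in bleomycin, against 324, 330 and 357 FPKM in control medium. All bleomycin libraries lay below all control libraries of their genotype, and the fall was 1.48-fold in knockout cells (log2 -0.57, SE 0.10, edgeR adjusted p = 0.000536) and 1.54-fold in wild type cells (log2 -0.62, SE 0.10, edgeR adjusted p = 0.000224). The highest control value belongs to knockout control replicate 2, and without that library the fall in knockout cells was -0.48 on the log2 scale (edgeR adjusted p = 0.000106).

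LOXL1, which is needed for elastic fibre assembly, moved with LOXL2. It was at 56.0, 51.9 and 56.1 FPKM in knockout bleomycin cells, against 69.1, 72.2 and 77.1 FPKM in knockout control cells. The values in wild type cells were 46.5, 41.8 and 51.8 FPKM in bleomycin, against 62.0, 70.6 and 76.8 FPKM in control medium. The groups did not overlap in either genotype, and LOXL1 was lower after bleomycin by 1.32-fold in knockout cells (log2 -0.40, SE 0.10, edgeR adjusted p = 0.00645) and by 1.48-fold in wild type cells (log2 -0.57, SE 0.10, edgeR adjusted p = 0.000556). Its antisense neighbour LOXL1-AS1, with which it shares 335 exon bases, fell too, by 2.71-fold in knockout and 3.25-fold in wild type cells. The sources used here do not say if reads were counted by strand, so reads of that stretch cannot be told apart.

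LOX, the founding lysyl oxidase, had the largest difference between the genotypes' responses among the 10. It was at 53.9, 52.9 and 56.3 FPKM in knockout bleomycin cells, against 57.8, 47.4 and 62.1 FPKM in knockout control cells, and these libraries overlapped. In wild type cells it was at 37.9, 36.5 and 44.6 FPKM in bleomycin, against 61.8, 59.4 and 64.2 FPKM in control medium, with no overlap. The log2 fold change of LOX was -0.03 in knockout cells (SE 0.11, edgeR adjusted p = 0.866, 95% interval -0.26 to 0.21), while in wild type cells LOX fell 1.55-fold (log2 -0.63, SE 0.11, edgeR adjusted p = 0.000375). Without knockout control replicate 2, the lowest of its group, the knockout value was -0.13 (edgeR adjusted p = 0.201). The difference between the genotypes' responses was 0.61 on the log2 scale (SE 0.15, unadjusted p = 0.00160 from edgeR's test across all genes), and it did not pass the threshold over all genes (edgeR adjusted p = 0.896). Without knockout control replicate 2 that difference was 0.50 (edgeR adjusted p = 0.130).

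LOXL3 and LOXL4, both members with scavenger receptor domains like LOXL2, were near the lower end of what was tested. LOXL3 was at 0.514, 0.580 and 0.619 FPKM in knockout bleomycin cells, against 0.414, 0.540 and 0.449 FPKM in knockout control cells. It was at 0.995, 0.545 and 0.511 FPKM in wild type bleomycin cells, against 0.396, 0.361 and 0.371 FPKM in wild type control cells. It was not called in knockout cells (log2 0.30, SE 0.26, edgeR adjusted p = 0.384) and was called higher in wild type cells (log2 0.87, SE 0.26, edgeR adjusted p = 0.0158). The wild type value rests in part on bleomycin replicate 1: without it the log2 fold change was 0.50 and the call was lost (edgeR adjusted p = 0.105), as it was without wild type control replicate 2. The difference between the responses was -0.57 (SE 0.37, edgeR adjusted p = 0.899). LOXL3 shares 625 exon bases with HTRA2 and 216 with DOK1 on the other strand, and these genes had 4239 and 4197 counts over all libraries, against 506 for LOXL3, so its values are uncertain. Neither neighbour was called after bleomycin in either genotype. The log2 fold changes were -0.01 in knockout and 0.28 in wild type cells for HTRA2, and -0.62 and -0.53 for DOK1. LOXL4 ranged from 0.402 to 0.727 FPKM over the 12 libraries, with overlap in every comparison, and its log2 fold change was 0.04 (SE 0.27) in knockout cells and 0.03 (SE 0.27) in wild type cells.

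PLOD2, the telopeptide lysyl hydroxylase, fell in both genotypes. It was at 69.7, 76.3 and 71.9 FPKM in knockout bleomycin cells, against 153, 158 and 149 FPKM in knockout control cells. In wild type cells it was at 83.2, 75.0 and 83.9 FPKM in bleomycin, against 184, 184 and 176 FPKM in control medium. The bleomycin libraries all lay far below the control libraries, with a fall of 2.09-fold in knockout cells (log2 -1.07, SE 0.08, edgeR adjusted p = 4.73e-07) and 2.24-fold in wild type cells (log2 -1.16, SE 0.08, edgeR adjusted p = 1.70e-07). The difference between these responses was 0.10 (SE 0.12, 95% interval -0.16 to 0.35).

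PLOD1, whose loss causes kyphoscoliotic Ehlers-Danlos syndrome, was at 32.3, 32.2 and 28.6 FPKM in knockout bleomycin cells, against 39.2, 28.3 and 40.6 FPKM in knockout control cells. It was at 31.2, 29.4 and 29.5 FPKM in wild type bleomycin cells, against 50.1, 46.5 and 48.7 FPKM in wild type control cells. In knockout cells PLOD1 was not called (log2 -0.20, SE 0.12, edgeR adjusted p = 0.187). Knockout control replicate 2 lay below all 3 knockout bleomycin libraries and the other control libraries lay above them. Without that library PLOD1 was called lower (log2 -0.35, SE 0.07, edgeR adjusted p = 0.000498). In wild type cells it fell 1.60-fold (log2 -0.68, SE 0.12, edgeR adjusted p = 0.000474). The difference between the responses was 0.48 (SE 0.17, unadjusted p = 0.0147 from edgeR's test across all genes, edgeR adjusted p = 0.899), and 0.33 without that library (edgeR adjusted p = 0.393).

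PLOD3, which hydroxylates lysine and also adds sugars to hydroxylysine, went the other way. It was at 34.8, 31.3 and 32.9 FPKM in knockout bleomycin cells, against 20.5, 27.5 and 21.2 FPKM in knockout control cells. It was at 32.4, 33.1 and 31.1 FPKM in wild type bleomycin cells, against 22.4, 23.2 and 23.0 FPKM in wild type control cells. The groups did not overlap, and PLOD3 rose 1.44-fold in knockout cells (log2 0.53, SE 0.11, edgeR adjusted p = 0.00139) and by 0.50 on the log2 scale in wild type cells (SE 0.11, edgeR adjusted p = 0.00175). The highest of its control values is again that of knockout control replicate 2, and without it the rise in knockout cells was 0.67 on the log2 scale (edgeR adjusted p = 1.60e-07).

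The alpha subunits of prolyl 4-hydroxylase moved in opposite directions. P4HA1 was at 22.9, 24.2 and 20.8 FPKM in knockout bleomycin cells, against 48.5, 55.4 and 49.3 FPKM in knockout control cells. It was at 22.9, 19.9985 and 23.7 FPKM in wild type bleomycin cells, against 57.3, 46.5 and 52.3 FPKM in wild type control cells. P4HA1 was thus lower in every bleomycin library, by 2.24-fold in knockout cells (log2 -1.16, SE 0.11, edgeR adjusted p = 1.71e-06) and 2.33-fold in wild type cells (log2 -1.22, SE 0.11, edgeR adjusted p = 8.39e-07).

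P4HA2 was at 56.4, 55.3 and 54.2 FPKM in knockout bleomycin cells, against 30.4, 34.1 and 30.04 FPKM in knockout control cells. It was at 50.03, 52.0 and 53.8 FPKM in wild type bleomycin cells, against 36.4, 27.7 and 32.9 FPKM in wild type control cells. Every bleomycin library lay above every control library, and P4HA2 rose 1.77-fold in knockout cells (log2 0.82, SE 0.10, edgeR adjusted p = 2.75e-05) and 1.62-fold in wild type cells (log2 0.69, SE 0.10, edgeR adjusted p = 9.62e-05). The differences between the genotypes' responses were 0.06 for P4HA1 (95% interval -0.26 to 0.37) and 0.13 for P4HA2 (95% interval -0.18 to 0.44).

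The isoenzyme make-up of each family was described as each gene's percentage of the family's summed FPKM. P4HA2 made up 71.0% of the alpha subunit FPKM in knockout bleomycin cells, against 38.2% in knockout control cells, and 70.1% in wild type bleomycin cells, against 38.3% in wild type control cells. The groups did not overlap, and the exact two-sided permutation p was 0.1 in each genotype, the smallest that 3 libraries against 3 allow. The sum of P4HA1 and P4HA2 overlapped between media, at 77.9 FPKM in knockout bleomycin cells, against 82.5 FPKM in knockout control cells, and 74.1 FPKM in wild type bleomycin cells, against 84.4 FPKM in wild type control cells (exact permutation p = 0.5 and 0.2).

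The order of the alpha subunits depends on the gene length used. The table gives P4HA2 a length of 8502 bases, the union of the exons of its 21 annotated transcripts, where its principal transcripts have a median length of 2569 bases, while P4HA1 has 3093 bases in the table and 2844 in its principal transcript. Per principal transcript length, an alternative chosen after the data were seen, P4HA2 held 88.2% in knockout bleomycin cells, against 65.3% in knockout control cells, and 87.7% in wild type bleomycin cells, against 65.3% in wild type control cells. The direction of the shift was the same with either length, but P4HA1 was the larger of the pair in control medium only with the table's length.

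Within the lysyl hydroxylases, PLOD2 held 53.1% of the summed FPKM in knockout bleomycin cells, against 72.2% in knockout control cells, and 56.4% in wild type bleomycin cells, against 71.8% in wild type control cells. PLOD3 held 24.2% in knockout bleomycin cells, against 10.9% in knockout control cells, and 22.6% in wild type bleomycin cells, against 9.04% in wild type control cells. The summed FPKM of the 3 genes was 137 in knockout bleomycin cells, against 212 in knockout control cells, and 143 in wild type bleomycin cells, against 253 in wild type control cells. None of these pairs of groups overlapped, with an exact permutation p of 0.1 each.

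LOXL2 held most of the lysyl oxidase FPKM in every library, with 70.7% in knockout bleomycin cells, against 75.3% in knockout control cells, and 71.3% in wild type bleomycin cells, against 71.8% in wild type control cells. Without knockout control replicate 2 the difference in the LOXL2 share in knockout cells was -2.92 percentage points, against -4.56 with it, while those of PLOD2 and P4HA2 were -18.1 and 32.8 points. The summed lysyl oxidase level was 376 FPKM in knockout bleomycin cells, against 526 FPKM in knockout control cells, and 306 FPKM in wild type bleomycin cells, against 470 FPKM in wild type control cells, with no overlap (exact permutation p = 0.1 each). A family of 52 such shares and sums was compared, and each p of 0.1 became 0.193 after Benjamini-Hochberg adjustment.

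**Figure D3:**
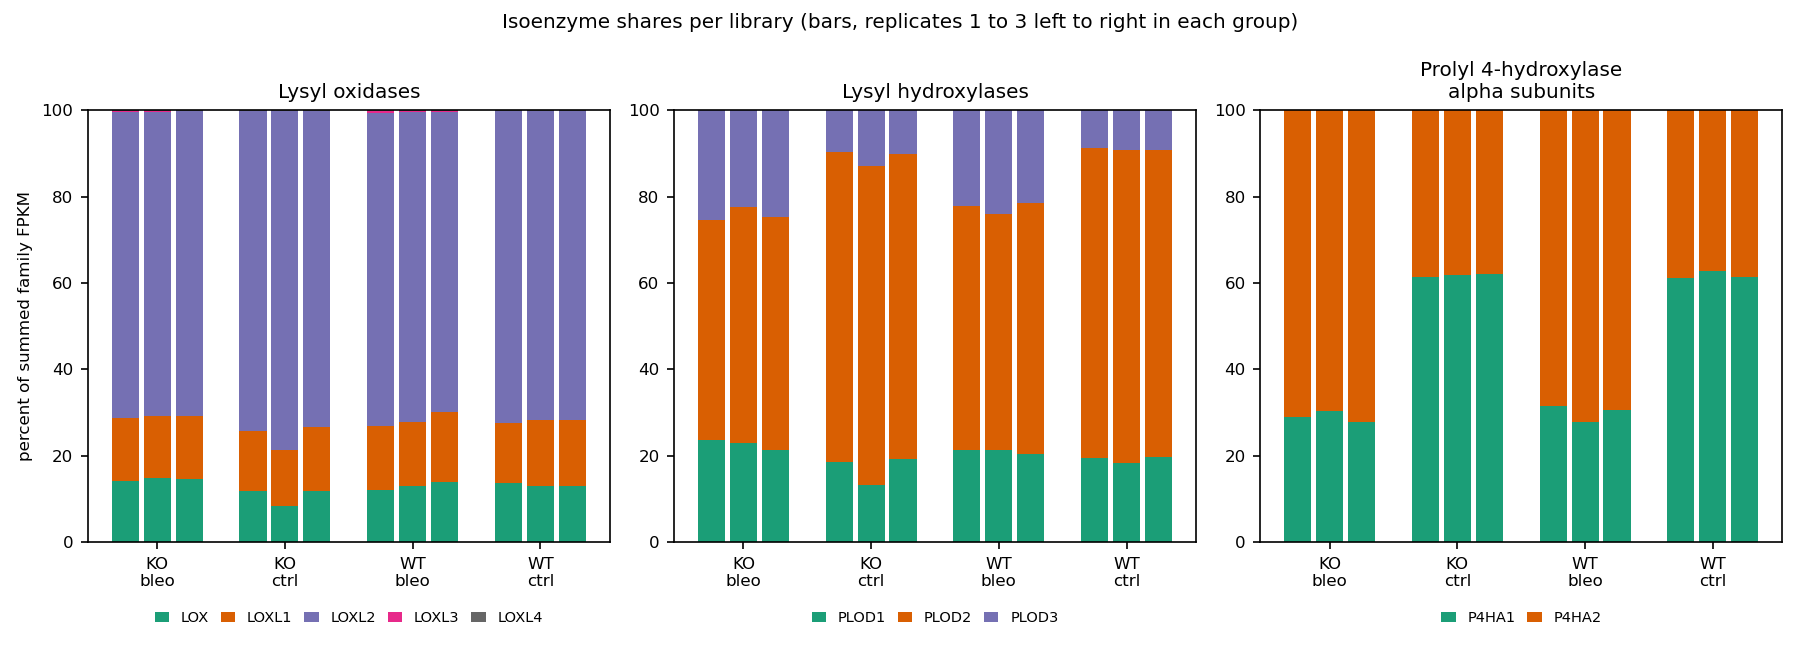
Percentage of the summed FPKM of each enzyme family held by each gene (y axis), 1 bar per library, for knockout (KO) and wild type (WT) cells in bleomycin (bleo) or control medium (ctrl). The P4HA2 share is 68.6% to 72.3% in the 6 bleomycin libraries and 37.3% to 38.8% in the 6 control libraries; LOXL3 and LOXL4 hold so little that they are barely visible.

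In the direct comparison of the genotypes in bleomycin, 0 of the 10 genes were called higher or lower by edgeR, against 0.00599% of all tested genes higher and 0.0419% lower. At an unadjusted p under 0.05 from edgeR there were 3 genes, LOX, LOXL1 and LOXL2, all higher in knockout cells, and 1103 of all 16702 genes. DESeq2 called 1 of the 10 and limma on log2 FPKM called 0. LOX, with 54.4 ± 1.75 FPKM in knockout and 39.7 ± 4.33 FPKM in wild type bleomycin cells (SD, n = 3 each), had no overlap between the genotypes and a log2 difference of 0.46 (SE 0.11, edgeR adjusted p = 0.244). LOX was the gene called by DESeq2 (adjusted p = 0.0286), and edgeR called it without the filter on low counts (adjusted p = 0.0341), with only the 2 groups compared in the fit (adjusted p = 0.00245) and without knockout control replicate 2, which leaves this comparison's own libraries as they are (adjusted p = 0.00255). LOXL2 differed by 0.29 (SE 0.10, edgeR adjusted p = 0.545) and LOXL1 by 0.23 (SE 0.10, edgeR adjusted p = 0.732), and both also showed no overlap. With only the 2 groups compared in the fit, edgeR also called LOXL2 (adjusted p = 0.0466). The other 7 log2 differences lay between -0.26 and 0.09. The summed lysyl oxidase level was 376 FPKM in knockout and 306 FPKM in wild type bleomycin cells (exact permutation p = 0.1).

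In control medium, 0 of the 10 genes were called between the genotypes by edgeR, against 0.108% of all tested genes higher and 0.0599% lower in knockout cells. At an unadjusted p under 0.05 from edgeR there were 3 genes, PLOD1 and PLOD2 lower and LOXL2 higher in knockout cells, and 1661 of all genes. DESeq2 called 1 of the 10, PLOD2, and limma called 0. PLOD1 had 36.0 ± 6.76 FPKM in knockout control and 48.4 ± 1.79 FPKM in wild type control cells (SD, n = 3 each), with no overlap and a log2 difference of -0.43 (SE 0.12, edgeR adjusted p = 0.248). The difference was -0.28 without knockout control replicate 2 (edgeR adjusted p = 0.0809), and edgeR called it when the filter on low counts was left out (adjusted p = 0.0163). PLOD2 had 153 ± 4.85 FPKM in knockout control and 182 ± 4.91 FPKM in wild type control cells, also without overlap, and differed by -0.25 (SE 0.08, edgeR adjusted p = 0.382; DESeq2 adjusted p = 0.0443). LOXL2 had 397 ± 40.0 FPKM in knockout control and 337 ± 17.3 FPKM in wild type control cells and differed by 0.23 (SE 0.10, edgeR adjusted p = 0.487). The difference without knockout control replicate 2 was 0.15 (edgeR adjusted p = 0.640).

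The bleomycin response itself was then compared between genotypes. Of the 10 genes 0 were called by edgeR, beside 0% of all tested genes higher and 0% lower. At an unadjusted p under 0.05 from edgeR there were 2 of the 10, LOX and PLOD1, and 770 of all genes, and neither DESeq2 nor limma called any of the 10. LOX and PLOD1 had been called lower after bleomycin in wild type and not in knockout cells, but the test of that difference did not pass the threshold for either. The comparisons within each genotype and within each medium share libraries, so their values stand side by side here and are not correlated with each other.

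Promoter stretches of PLOD2, P4HA1 and LOX, which are among the textbook targets of the hypoxia-inducible factors (HIF), are shown with the core letters of the hypoxia response element. They are examples, and other genes of the 10 may be HIF targets too. PLOD2 and P4HA1 fell in both genotypes, LOX was called lower in wild type cells only, and P4HA2 rose in both genotypes. The RefSeq promoter table (GRCh38.p14) matched 9 of the 10 genes with 12 start sites. The core ACGTG or GCGTG was searched on both strands in the 250 bases before each start, and ACGTG and its reverse complement CACGT overlap wherever CACGTG occurs. It was found in 7 of the 12 windows, of LOX, LOXL3, PLOD1, PLOD2 and P4HA1, and in 43.2% of all 35116 windows of the table. Overlapping windows of LOX hold the same cores, which are thus counted more than once. By gene the core was found in 5 of 9. A match is a description, not a binding site. All are on the minus strand and read 5′ to 3′ towards the start, with cores in capitals on either strand. PLOD2 is shown at chr3:146161185-146161434, LOX at chr5:122078361-122078509, the stretch from 250 to 102 bases before the start with 2 of its 4 cores, and P4HA1 at chr10:73096935-73096964, 30 bases around its single core. These windows precede RefSeq starts, which need not be the outermost start of a gene. In GENCODE 29 the PLOD2 stretch lies inside the gene's span, though in none of its exons, and all 30 bases of the P4HA1 stretch lie in exons, while the LOX stretch lies just outside its gene.
PLOD2: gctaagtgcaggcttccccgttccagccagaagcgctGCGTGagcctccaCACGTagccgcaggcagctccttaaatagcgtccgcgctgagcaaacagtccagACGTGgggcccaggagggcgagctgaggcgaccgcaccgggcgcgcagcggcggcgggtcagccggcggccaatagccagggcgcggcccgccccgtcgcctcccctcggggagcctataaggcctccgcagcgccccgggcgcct
LOX: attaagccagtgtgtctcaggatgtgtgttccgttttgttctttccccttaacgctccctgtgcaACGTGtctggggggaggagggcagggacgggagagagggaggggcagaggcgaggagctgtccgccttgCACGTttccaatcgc
P4HA1: tgtgatcgagctCACGTagcgagggctgca
The windows of PLOD3 and P4HA2 held no such core. All 250 bases of either window lie in GENCODE 29 exons, inside the span of the gene, so sequence before the outermost starts was not searched, and no contrast with the windows above is drawn.

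Lists of related genes were measured alongside, and their counts stand against the 22.5% of all tested genes called higher and 20.7% lower in knockout cells, and the 23.9% higher and 19.6% lower in wild type cells. Without knockout control replicate 2 edgeR called more of all 16702 tested genes. These were 4353 higher and 3852 lower in knockout cells, and 5009 higher and 4547 lower in wild type cells. Of 8 genes of the HIF system 2 rose, a share near that background, and 4 fell after bleomycin in each genotype, with a median log2 fold change of -0.25 in knockout and -0.29 in wild type cells. In knockout cells 3 rose when knockout control replicate 2 was left out. EGLN1, a prolyl hydroxylase that marks HIF alpha subunits for destruction, was at 82.8 CPM in knockout bleomycin and 183 CPM in knockout control cells (log2 -1.14, edgeR adjusted p = 3.13e-06), and at 78.0 CPM in wild type bleomycin and 175 CPM in wild type control cells (log2 -1.17, edgeR adjusted p = 2.06e-06). EGLN3 and EGLN2 also fell in both genotypes, as did ARNT, the HIF beta subunit. The transcripts of the alpha subunits rose: EPAS1 by 1.16 and HIF1A by 0.69 on the log2 scale in knockout cells, and EPAS1 by 0.78 and HIF1A by 0.74 in wild type cells.

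Of 16 HIF target genes, 12 fell and 3 rose in each genotype, with a median log2 fold change of -0.95 in knockout and -1.24 in wild type cells, against 0.00 and 0.02 over all genes. Those that fell included LDHA, lactate dehydrogenase A, by 1.36 on the log2 scale in knockout cells and by 1.68 in wild type cells, and BNIP3, a mitophagy receptor, by 1.27 in knockout cells and by 1.66 in wild type cells. CA9, a carbonic anhydrase, was at 5.45 CPM in knockout bleomycin and 135 CPM in knockout control cells. CA12, ANGPTL4 and VEGFA rose in both genotypes, as P4HA2 did. EGLN3 belongs to both lists. When knockout control replicate 2 was left out, 11 of the 16 HIF targets fell and 3 rose in knockout cells (median -1.02). In wild type cells 13 fell and 3 rose in that fit (median -1.24), whose counts over all genes are given above. In the comparisons of the genotypes and of their responses, edgeR on all 12 libraries called 0 genes of any list in this and the next paragraphs. Without knockout control replicate 2, 1 of the 14 collagen genes below was called lower in knockout than in wild type control cells. In that fit 58 of all tested genes were called lower in that comparison.

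**Figure D4:**
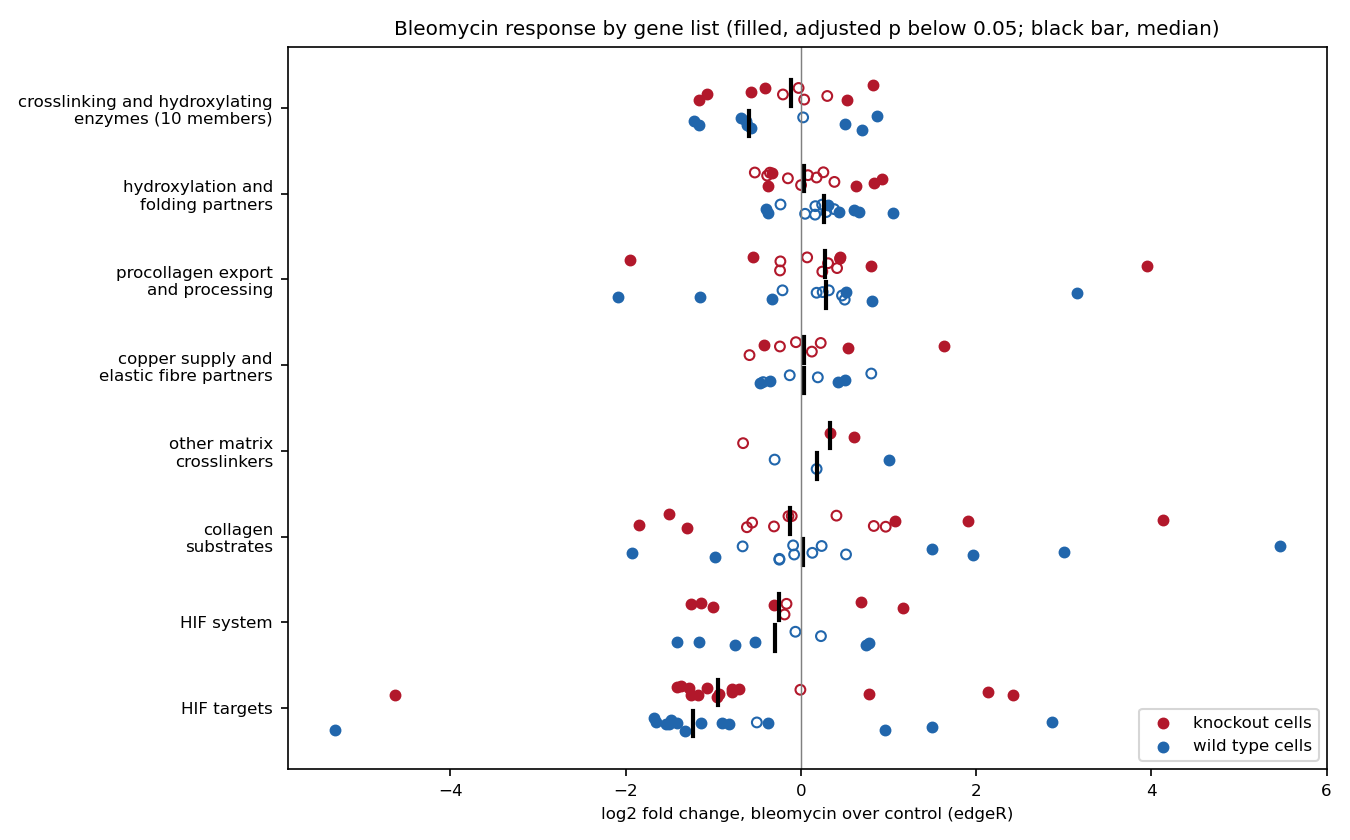
Log2 fold change of bleomycin over control (x axis, edgeR) for each tested gene of the lists named at the left, knockout cells above wild type cells; filled points have an adjusted p under 0.05 and black bars are list medians. The HIF targets lie mostly below 0 and the other lists are spread on both sides of it.

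Of 14 partners in hydroxylation and folding 3 rose, 2 fell and 9 were not called in knockout cells, and 5 rose, 2 fell and 7 were not called in wild type cells. These shares lie near the background (22.5% higher and 20.7% lower of all tested genes in knockout cells, 23.9% and 19.6% in wild type cells) or, for the 5 that rose, somewhat above it. The median log2 fold changes were 0.04 in knockout and 0.27 in wild type cells. P4HTM, a transmembrane prolyl 4-hydroxylase that is not a subunit of the collagen enzyme, rose by 0.92 in knockout and 1.05 in wild type cells on the log2 scale. CRTAP, a subunit of the prolyl 3-hydroxylation complex, rose by 0.83 in knockout and 0.61 in wild type cells. FKBP10, a collagen chaperone, rose by 0.63 in knockout and 0.44 in wild type cells. SERPINH1, the collagen chaperone HSP47, fell by 0.33 in knockout cells and by 0.38 in wild type cells, and COLGALT1, which adds galactose to hydroxylysine, fell by 0.38 in knockout cells and by 0.39 in wild type cells. P4HB, which forms the enzyme with P4HA1 or P4HA2, had log2 fold changes of 0.18 (edgeR adjusted p = 0.0931) in knockout and 0.05 (edgeR adjusted p = 0.669) in wild type cells. Without knockout control replicate 2, 7 of the 14 were called higher and 2 lower in knockout cells, with a median of 0.19. In that fit 4353 of all 16702 tested genes were called higher and 3852 lower. In wild type cells 7 of the 14 were called higher and 3 lower, beside 5009 and 4547 of all genes.

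Among 12 genes of procollagen export and processing, 3 rose and 2 fell in knockout cells (background 22.5% higher and 20.7% lower) and 3 rose and 3 fell in wild type cells (background 23.9% and 19.6%), shares near those of all tested genes. ADAMTS3, which cleaves procollagen N-propeptides, fell by 1.95 on the log2 scale in knockout cells and by 2.09 in wild type cells. KLHL12, an adaptor in the ubiquitination that enlarges COPII coats for procollagen, rose by 0.80 in knockout and 0.82 in wild type cells. BMP1, the procollagen C-proteinase, which also activates LOX, rose by 0.45 in knockout and 0.51 in wild type cells. Its relative TLL2 was at 1.02 CPM in knockout bleomycin and 0.0566 CPM in knockout control cells. That control mean lies below the 0.164 to 0.181 CPM that 3 counts make in those libraries, so the size of the contrast is uncertain. PCOLCE, the enhancer of C-proteinase cleavage, fell by 0.55 in knockout cells, a call lost without any of 5 of the 6 knockout libraries, and by 1.15 in wild type cells. In the fit that left out knockout control replicate 2, 4 of the 12 were called higher and 2 lower in knockout cells. Beside them stood 4353 and 3852 of all 16702 tested genes. In wild type cells 7 of the 12 were called higher and 3 lower, beside 5009 and 4547 of all genes.

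Of 8 genes for copper supply to the lysyl oxidases and for elastic fibres, 2 rose and 1 fell in knockout cells (background 22.5% higher and 20.7% lower) and 2 rose and 2 fell in wild type cells (background 23.9% and 19.6%), again near the shares of all tested genes. With knockout control replicate 2 left out, 2 were called higher and 2 lower in knockout cells, beside 4353 and 3852 of all 16702 tested genes. In wild type cells 4 were called higher and 2 lower, beside 5009 and 4547 of all genes. ATOX1, a copper chaperone, rose by 0.54 in knockout and 0.42 in wild type cells, and FBN1, fibrillin-1, fell by 0.43 in knockout cells and by 0.47 in wild type cells, but these calls were lost on leaving out single libraries. In knockout cells that library was bleomycin replicate 2 for both (edgeR adjusted p = 0.0653 for ATOX1 and 0.0842 for FBN1), and in wild type cells it was control replicate 3 for FBN1 (edgeR adjusted p = 0.0594) and any of 5 libraries for ATOX1 (edgeR adjusted p up to 0.159). FBLN5, fibulin-5, rose by 1.64 in knockout cells, and in wild type cells EFEMP2, fibulin-4, fell by 0.35 and FN1, fibronectin, rose by 0.50, a call lost on leaving out any of 8 of the 12 libraries (edgeR adjusted p up to 0.176). Of 3 crosslinkers of other chemistry, TGM2, a transglutaminase, rose by 0.60 in knockout and 1.01 in wild type cells, and PXDN, which crosslinks collagen IV, rose by 0.34 in knockout cells. In knockout cells the call of TGM2 was lost without bleomycin replicate 2 or control replicate 2 (edgeR adjusted p up to 0.0581), and that of PXDN without bleomycin replicate 1 or 3 or control replicate 1 (edgeR adjusted p up to 0.0921).

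Of 14 collagen genes, the substrates of these enzymes, 3 rose and 3 fell in knockout cells (background 22.5% higher and 20.7% lower) and 4 rose and 2 fell in wild type cells (background 23.9% and 19.6%), shares near those of all tested genes. COL12A1 fell by 1.85 on the log2 scale in knockout cells and by 1.93 in wild type cells, and COL5A2 by 1.29 in knockout cells and by 0.98 in wild type cells. COL17A1, of hemidesmosomes, was at 38.6 CPM in knockout bleomycin and 2.19 CPM in knockout control cells, and at 39.1 CPM in wild type bleomycin and 0.873 CPM in wild type control cells. COL16A1 rose by 1.07 in knockout and 1.499 in wild type cells, and COL7A1, of anchoring fibrils, by 1.90 in knockout and 3.00 in wild type cells. In knockout control replicate 2 COL7A1 was at 309 CPM, COL16A1 at 23.6 CPM and COL5A2 at 590 CPM. The other knockout control libraries had 86.0 and 103 CPM of COL7A1, 14.3 and 13.8 CPM of COL16A1, and 334 and 343 CPM of COL5A2. The log2 values of these genes in knockout cells thus rest in part on that library. COL1A1 was at 3474 CPM in knockout control replicate 2 and at 556 and 707 CPM in the other knockout control libraries. It was called lower in knockout cells (log2 -1.51, edgeR adjusted p = 0.0498), and without that library the value was -0.19 (edgeR adjusted p = 0.666). Without it, 6 of the 14 collagens were called higher and 2 lower in knockout cells, beside 4353 and 3852 of all 16702 tested genes.

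Each enzyme was last matched with the genes whose centred log2 CPM over the 12 libraries lay nearest by root mean square difference. Within the 10, the nearest pairs were LOXL1 with LOXL2 at 0.118, PLOD2 with P4HA1 at 0.136 and PLOD3 with P4HA2 at 0.169. Among 13457 other protein-coding genes the nearest to PLOD2 were KLF9 at 0.0866 and MTMR4 at 0.101, and the nearest to P4HA1 were MED30 at 0.0823 and UBE2S at 0.0974. The nearest to LOXL2 were KLF6 at 0.0515 and PCID2 at 0.0634, and to LOXL1 they were ARNTL2 at 0.0845 and THBS2 at 0.0917. LOX was nearest to HSPB1 at 0.0914 and SCARB1 at 0.102, LOXL3 to TRIM24 at 0.179 and NEK8 at 0.193, and PLOD1 to POR at 0.0613 and MAPK3 at 0.0775. PLOD3 was nearest to GPAA1 at 0.0650 and DLG5 at 0.0697, and P4HA2 to TMBIM1 at 0.0845 and TMEM159 at 0.0918. For comparison, the median distance to all those genes ran from 0.383 for LOXL1 to 0.645 for P4HA1. The libraries share 1 treatment difference that a great part of all genes follow, so likeness over them is a description only.

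The genes lie on 8 chromosomes, with coordinates as the deposited table gives them, which are those of GENCODE 29 on GRCh38. LOX is at chr5:122063195-122078360 and P4HA2 at chr5:132191838-132295315, both on the minus strand. P4HA1 is at chr10:73007217-73096974 and LOXL4 at chr10:98247690-98268250, also on the minus strand, as are LOXL2 at chr8:23297189-23425328, LOXL3 at chr2:74532414-74555690, PLOD2 at chr3:146069440-146163653 and PLOD3 at chr7:101205977-101218420. LOXL1 is at chr15:73925989-73952137 and PLOD1 at chr1:11934205-11975538 on the plus strand. PLOD3 shares 429 exon bases with ZNHIT1 on the other strand, which had 18070 counts in all against 34739 for PLOD3. As the strand setting is not given, reads of that stretch cannot be told apart. After bleomycin ZNHIT1 was called in neither genotype (log2 -0.64 in knockout and -0.08 in wild type cells, with overlap between media in both). P4HA2 shares 548 exon bases with P4HA2-AS1, which had 67 counts in all against 80066 for P4HA2.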

How the data were processed

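RNA of 12 Beas-2b libraries was measured by sequencing. The authors deposited raw counts and FPKM values for 58735 genes. Per the submitters' processing notes, the tools were HISAT2 2.0.5 (alignment) and featureCounts 1.5.0-p3 (counting). Genome build and strand setting are not given in the sources used here, but all 10 genes have the coordinates of GENCODE 29 on GRCh38. The deposited FPKM equalled the count divided by the table's gene length and a library factor, within 0.1%, for 100% of the 300363 values with a count above 0. Every row named a gene (0 were without a name). Gene lengths are unions of exons, so FPKM understates a gene whose expressed transcripts are shorter.

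Counts were tested with edgeR 4.0.16 in R 4.3.3 (filterByExpr, which kept 16702 genes, TMM scaling, robust quasi-likelihood fit of 4 group means over all 12 libraries). The 5 contrasts were bleomycin against control in each genotype, knockout against wild type in each medium, and the difference of the responses. P-values were adjusted by Benjamini-Hochberg over all tested genes with a threshold of 0.05. SE is the absolute log2 fold change over the root of the F statistic. The fit was tested on simulated data. CPM used TMM-scaled library sizes. Shares and sums of FPKM were compared by exact two-sided permutation. Nothing in the labels says that replicates were separate cultures beyond the words biological replicates, so p-values measure the spread between these libraries. No pair of replicates agreed within sampling noise. Totals of 15.75 to 21.92 megacounts mean that 3 counts, the most that a count of 0 allows, are 0.137 to 0.190 CPM, for counting error only.

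Alternatives were RLE factors, DESeq2 1.42.0, no filter on low counts, a replicate block, only the groups compared, limma 3.58.1 on log2(FPKM + 1) and log2(FPKM + 0.1), each library left out, and other measures for the shares. The 10 genes, the lists and their tests were chosen with earlier results of these data known. Named beyond the 10 genes are SLC25A4, per list and contrast up to 4 called genes with the smallest adjusted p (or, with under 2 called, the 2 most abundant), genes called against their list's majority, and the 2 nearest profiles of each called enzyme. Other genes named, such as P4HB, COL1A1, ITGAM and overlapping neighbours, were chosen after their values were seen.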

Additional observations from a re-analysis of the deposited data

How the results depend on the processing

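In the bleomycin comparisons the calls of the 10 genes kept their direction and side of the threshold under all settings that kept every library, and on leaving out single libraries the exceptions were PLOD1 in knockout cells and LOXL3 in wild type cells, given above, besides sign changes of values near 0. The genotype comparisons depended on the setting, and the cause was not tested. With DESeq2, no filter on low counts, and only the groups compared, 1, 1 and 2 of the 10 were called higher in knockout cells in bleomycin (0 to 1 on leaving out a library), among 34, 33 and 163 genes in all (2 with limma on log2(FPKM + 1), 1 to 156 on leaving out a library). Genes called lower there numbered 54, 48 and 153 under the same settings, 26 and 3 with limma at a pseudocount of 1 and 0.1, and 1 to 138 on leaving out a library. In control medium DESeq2 and no filter each called 1 of the 10 lower, among 63 and 110 genes lower and 146 and 211 higher. With only the groups compared, 0 genes were higher and 0 lower, with limma 8 higher and 6 lower at either pseudocount, and on leaving out a library 0 to 110 higher and 0 to 58 lower. For the difference of the responses, no filter called 1 gene higher and 12 lower, DESeq2 called 4 lower, and leaving out a library gave 0 to 7 lower.

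Replicate numbers did not pair the libraries: deviations from group means correlated between same-numbered libraries with a median of -0.0097 (-0.128 to 0.109, 1 of 18 pairs over 0.1). With the replicate block 3 genes were lower between genotypes in bleomycin, and 7 higher and 4 lower in control medium, and no call of the 10 genes changed.

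The fall of the PLOD2 share in knockout cells was -10.9 percentage points when the family's least abundant gene was left out. In wild type cells the fall of the PLOD2 share was -15.4 points, -13.9 from raw counts and -6.08 without PLOD3. The genotype difference in control medium was 2.05 without PLOD3. The rise of the P4HA2 share was 24.1 points from raw counts and 22.9 per principal transcript length in knockout cells, and 23.5 and 22.3 in wild type cells.

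Leaving out single libraries changed the sign of these log2 values, none of them called: after bleomycin LOX in knockout cells (-0.131 to 0.0594) and LOXL4 in knockout (-0.18 to 0.26) and wild type cells (-0.0884 to 0.117); between genotypes in bleomycin LOXL3 (-0.43 to 0.12), LOXL4 (-0.22 to 0.14), PLOD3 (-0.0066 to 0.0768) and P4HA1 (-0.0371 to 0.0849); between genotypes in control medium LOXL1 (-0.0390 to 0.135), LOXL4 (-0.21 to 0.14), PLOD3 (-0.132 to 0.0930, and -0.0142 with no filter), P4HA1 (-0.0986 to 0.0268) and P4HA2 (-0.135 to 0.0353); and in the difference of responses LOXL4 (-0.21 to 0.23), PLOD3 (-0.0547 to 0.1701) and P4HA1 (-0.0110 to 0.129).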
